A study of Mus musculus with 9 samples.

Results

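The comparison described here set dorsal pancreatic epithelium of mouse embryos carrying 1 altered allele each of Sox9 and Pdx1 (labelled Sox9Pdx1D-het) against epithelium with the Pdx1 alteration alone (Pdx1het). Its members are the 3 arrays with each of these genotype labels, 6 of the 9 samples of the series, and all 18541 genes of the deposited table. The Pdx1het embryos carried a Pdx1 allele knocked out by insertion of lacZ. The Sox9Pdx1D-het embryos carried that allele together with 1 floxed Sox9 allele and the Foxa3-Cre transgene, which directs Cre recombinase from Foxa3 regulatory DNA to the endoderm. The third genotype, Sox9het, carried the floxed Sox9 allele and Foxa3-Cre with an intact Pdx1, and its 3 arrays entered the fit only to help estimate the spread. All embryos were littermates at e12.5, and each sample pooled RNA of 3 microdissected dorsal pancreata. No group carried Foxa3-Cre without the floxed Sox9 allele, so the Sox9 deletion and the transgene cannot be told apart in any difference given here. The title of the third Sox9Pdx1D-het sample names both 3 and 4, and it was counted as 1 sample.

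PDX1 is a homeodomain factor that pancreatic buds need in order to grow and differentiate, and it later controls insulin in beta cells. SOX9 is an HMG-box factor that keeps pancreatic progenitors multipotent, works with FGF signalling, and acts upstream of the endocrine regulator NEUROG3. Outside the pancreas SOX9 drives cartilage genes and marks neural crest and glia. The dorsal bud borders on the developing duodenum, stomach and liver, which arise from the same endoderm, and both factors are known for holding that endoderm to a pancreatic fate. The question behind the design is what loss of a Sox9 allele adds to loss of a Pdx1 allele.

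RNA was amplified, labelled with Cy3 and hybridised to 1-colour arrays, and each value is a normalised linear intensity, from 32 to 444942. Array medians lay between 347 and 353, and the lower quartile of the genes' mean intensities was 118.7, below which a value may be little above background. Intensities of different genes come from different probes and are not compared with each other. Progenitor and exocrine genes were measured well above that level in both groups: Pdx1 read from 1080 to 1352, Ptf1a from 1555 to 2345, Nkx6-1 from 5731 to 8053 and Cpa1 from 80271 to 112072. Sox9Pdx1D-het replicate 3 stood apart from the other 8 arrays. The standard deviation of its log2 values around the group mean was 0.1898, against 0.1143 to 0.1665 on the others, and its highest correlation with another array was 0.9918, against at least 0.9948 for the others.

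The altered genes themselves were not lower in the arrays labelled Sox9Pdx1D-het. Sox9 read 239, 198 and 234 on the Pdx1het arrays and 292, 328 and 381 on the Sox9Pdx1D-het arrays, and it read 294, 294 and 325 on the Sox9het arrays. Every array whose label includes the Sox9 deletion was thus above every array whose label does not. The log2 difference between Sox9Pdx1D-het and Pdx1het was 0.57 (SE 0.113, n = 3 each), with a limma adjusted p = 0.108, and an exact two-sided permutation test gave p = 0.1, the smallest that 3 against 3 can give. No source used here says whether the Sox9 probe lies inside the floxed part of the gene. The probe may therefore check nothing about the deletion, and the groups are called by their labels throughout. Pdx1 read 1132, 1098 and 1080 in Pdx1het and 1203, 1143 and 1352 in Sox9Pdx1D-het. Both groups carry the same Pdx1 alteration, and the log2 difference was 0.16 (SE 0.0911, limma adjusted p = 0.397, exact permutation p = 0.1). The authors' deposited table gives these differences an FDR of 2.19e-04 for Sox9 and 0.161 for Pdx1.

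Across the table, 20 of 18541 genes (0.108%) differed at a limma adjusted p under 0.05, 7 higher (0.0378%) and 13 lower (0.0701%) in Sox9Pdx1D-het. Below, a gene "rose" or "fell" only if it is one of these 20. Of those that rose, 6 are reported here: Foxa3, Irf2bp1, Upk3a, Slc6a4, Mypop and Serpina5. Those that fell were Prickle2, Trim55, D130020G16Rik, Meis2, 6820402I19Rik, Cdcp1, Fryl, Mapk8, 4930588G05Rik, 2610035D17Rik, Rian, Mmd2 and Kcna7. All 20 differed at least 1.5-fold, and on none did the arrays of the 2 groups overlap. Leaving out 1 array at a time left 1 to 9 calls: 5, 1 and 4 without Pdx1het replicates 1, 2 and 3, and 9, 4 and 6 without Sox9Pdx1D-het replicates 1, 2 and 3. Foxa3 was the only gene called in each of these 6 fits.

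Smaller differences were spread through the table. At an unadjusted p under 0.05 there were 2994 genes (16.1%), 1441 higher (7.77%) and 1553 lower (8.38%), and the arrays did not overlap in 2145 genes on the high side (11.6%) and 2106 on the low side (11.4%), together 22.9%. Of 42 genes with at least a 2-fold difference, 32 higher and 10 lower, 3 were called and 26 had arrays that did not overlap. The authors' deposited table lists 3199 genes (17.3%) with an FDR under 0.05, 1541 higher (8.31%) and 1658 lower (8.94%), and in 2364 of them the arrays did not overlap. All 20 called genes are among these 3199.

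**Figure D1:**
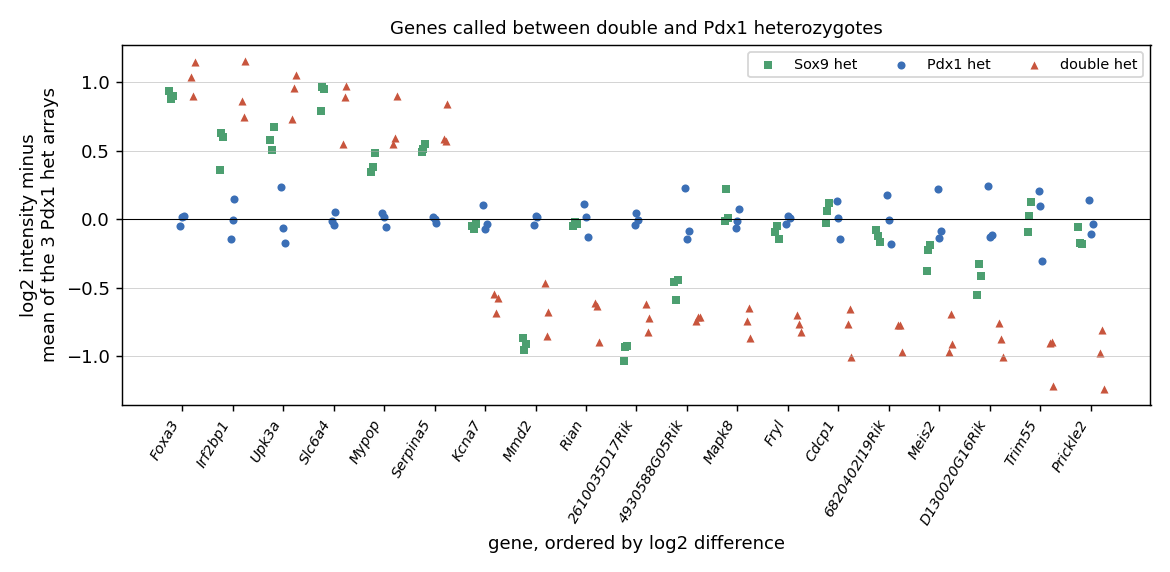
Intensities of 19 of the 20 called genes on each of the 9 arrays, as log2 intensity minus the mean of the 3 Pdx1het arrays (vertical axis), with genes ordered by the difference (horizontal axis). Squares are Sox9het, circles Pdx1het and triangles Sox9Pdx1D-het arrays, and in each gene all 3 triangles lie on 1 side of all 3 circles.

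Foxa3 had the lowest p of all genes and was 2.04-fold higher. Foxa3 encodes a forkhead pioneer factor of endoderm and liver, and its regulatory DNA drives the Cre transgene. It read 521, 545 and 548 on the Pdx1het arrays and 1105, 1006 and 1193 on the Sox9Pdx1D-het arrays. It also read 1029, 987 and 1002 on the Sox9het arrays, so the 6 arrays with the transgene lay between 987 and 1193 and the 3 without it at or below 548. The log2 difference was 1.03 (SE 0.0769, limma adjusted p = 0.00366), and it stayed between 0.97 and 1.09 when any 1 array was left out.

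Most genes beside Foxa3 on chromosome 7 also read higher. Their order was taken from RefSeq on GRCm38.p6, since the files name no genome build, and this run of 8 genes from Mypop to Six5 was chosen after their values were seen. Irf2bp1, which encodes a partner of the repressor IRF2, read 1703, 1880 and 2088 in Pdx1het and 3434, 3166 and 4199 in Sox9Pdx1D-het, a rise of 0.92 in log2 (SE 0.126, limma adjusted p = 0.0434). Mypop, a Myb-related factor, read 206, 202 and 192 against 293, 302 and 373 and rose by 0.68 in log2 (SE 0.098, limma adjusted p = 0.0495). The high and low arrays were well separated in both genes.

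On the other side of Foxa3, Sympk, whose product is a scaffold for mRNA 3′ end processing, read 5647, 8551 and 8537 in Pdx1het and 14339, 12869 and 13752 in Sox9Pdx1D-het. Its log2 difference of 0.87 missed the threshold (SE 0.159, limma adjusted p = 0.0916). Dmwd, a WD-repeat gene, read 4307, 3766 and 4474 against 6653, 6033 and 9148, a log2 difference of 0.78 (SE 0.151, limma adjusted p = 0.105). Six5, a homeobox gene, differed by 0.40 and its arrays did not overlap, while Dmpk, a kinase gene, differed by 0.38 and its arrays did. Rsph6a, a sperm flagellum gene, was the exception at −0.10, at intensities between 68 and 103. In all, 3 of the 8 genes rose (against 0.0378% of all genes) and 6 had arrays that did not overlap on the high side (against 11.6%). The ends of the run were set by these values. Immediately outside it, Ccdc61 differed by −0.03 and Fbxo46 by −0.04, and neither was called. Farther out, Pglyrp1 and Snrpd2 lay wholly above, at 0.48 and 0.20, and Gipr wholly below, at −0.38, none of them called. Sox9het arrays, which carry the transgene but an intact Pdx1, read 11063, 13049 and 13820 for Sympk and 2417, 2917 and 2857 for Irf2bp1. Whether the transgene carries copies of these genes was not tested.

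**Figure D2:**
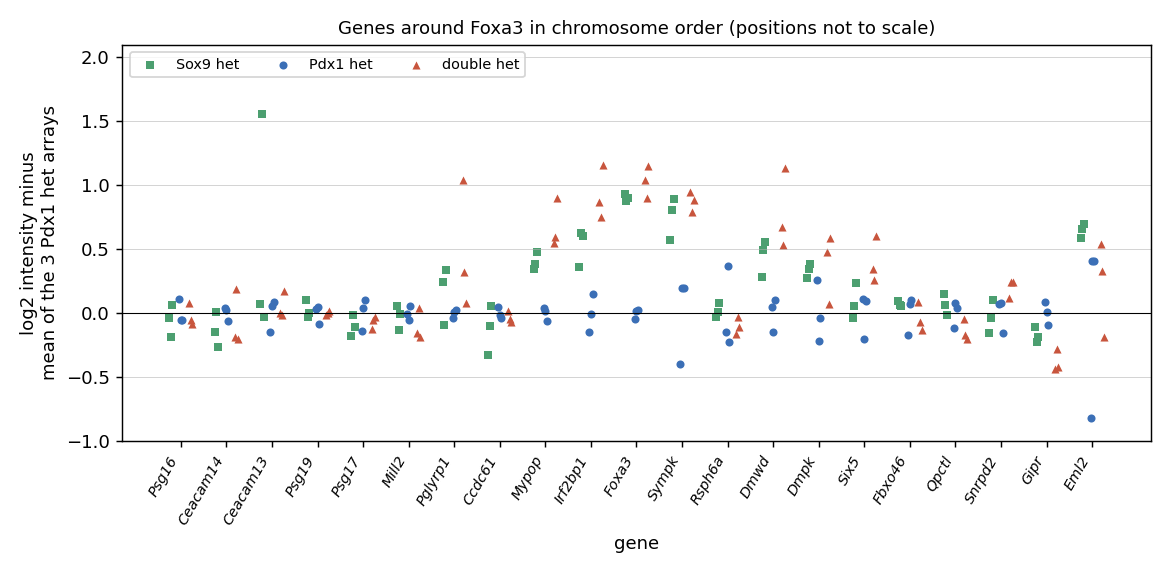
Foxa3 and the 10 measured genes on either side of it in chromosome order, as log2 intensity minus the mean of the 3 Pdx1het arrays. Squares are Sox9het, circles Pdx1het and triangles Sox9Pdx1D-het arrays; from Mypop to Six5 the triangles lie mostly above the circles, and Ccdc61 and Fbxo46 on either side lie near 0.

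Foxa3 and Sympk are neighbours on opposite strands that read outward from a shared interval, so the DNA just before each is shown because both were high on the same arrays. The sequences are the 250 bases before each start in RefSeq on GRCm38.p6, 5′ to 3′ on the gene's strand, in lower case. A SOX-type core motif was searched on both strands as ACAATG or ACAAAG, so that the same 6 bases cannot match both on 1 strand, and any match is in capitals. Neither window holds a match, and 8292 of 32851 promoter windows of this length (25.2%) do.
Foxa3 (chr7:19023540-19023789, minus strand): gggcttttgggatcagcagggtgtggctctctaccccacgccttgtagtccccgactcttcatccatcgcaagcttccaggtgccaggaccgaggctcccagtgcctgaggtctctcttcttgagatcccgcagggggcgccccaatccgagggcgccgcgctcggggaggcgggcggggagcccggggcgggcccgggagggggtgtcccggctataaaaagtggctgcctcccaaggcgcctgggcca
Sympk (chr7:19024127-19024376, plus strand): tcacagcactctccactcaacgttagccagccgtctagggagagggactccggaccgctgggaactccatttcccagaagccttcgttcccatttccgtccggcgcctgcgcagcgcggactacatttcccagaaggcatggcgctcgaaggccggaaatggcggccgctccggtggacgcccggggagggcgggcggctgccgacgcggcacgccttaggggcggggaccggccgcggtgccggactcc

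Next to Sox9 itself on chromosome 11, the nearest measured gene on each side was lower in Sox9Pdx1D-het. The noncoding transcript 2610035D17Rik read 819, 871 and 842 in Pdx1het and 550, 476 and 513 in Sox9Pdx1D-het, and it fell by 0.72 in log2 (SE 0.076, limma adjusted p = 0.0254). It was lowest on the Sox9het arrays, at 411, 441 and 444. BC006965 read 2709, 537 and 1104 in Pdx1het and 253, 172 and 213 in Sox9Pdx1D-het, a log2 difference of −2.48 with a wide error (SE 0.711, limma adjusted p = 0.185). The Pdx1het arrays of this gene ranged over several-fold, and the Sox9het arrays read 1149, 1453 and 231. The second neighbour, Slc39a11, differed by −0.01. The 250 bases before the start of 2610035D17Rik are shown because it was called, chosen after its values were seen; they hold a single ACAAAG, in capitals, on the strand printed.
2610035D17Rik (chr11:113201839-113202088, minus strand): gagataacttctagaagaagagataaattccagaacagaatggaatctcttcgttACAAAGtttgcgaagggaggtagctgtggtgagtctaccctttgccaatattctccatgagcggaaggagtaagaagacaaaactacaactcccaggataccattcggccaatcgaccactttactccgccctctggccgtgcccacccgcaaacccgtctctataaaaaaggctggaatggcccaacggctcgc

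Of 20 measured genes that SOX9 is known to activate in cartilage, none was called, and in 4 (20%, against 11.4% of all genes) the arrays did not overlap on the low side, with 0 on the high side (11.6%). At an unadjusted p under 0.05, 1 was higher (against 7.77% of all genes) and 5 lower (against 8.38%). The median log2 difference was −0.089, against 0.01 for all genes. Col9a3, a chain of type IX collagen, read 684, 772 and 648 in Pdx1het and 437, 290 and 256 in Sox9Pdx1D-het, a difference of −1.13 (SE 0.179, limma adjusted p = 0.0715). Col9a1, another chain of that collagen, read 1094, 1210 and 1214 against 702, 367 and 558, at −1.16 (SE 0.226, limma adjusted p = 0.105). Col2a1, the main cartilage collagen and a direct SOX9 target, read 9340, 9998 and 10039 against 7664, 6493 and 6757, at −0.49 (SE 0.0857, limma adjusted p = 0.0871). The third chain of type IX collagen, Col9a2, differed by 0.03 with overlapping arrays, and Matn4, a cartilage matrix protein, read 886, 1394 and 1926 against 2282, 2525 and 1908, at 0.74 on the high side with overlap. Leaving out an array makes non-overlap easier for every gene. Here and below, such a count therefore cannot fall under the count on all arrays, and its range shows no stability. With any 1 array left out, the low-side count ran from 4 to 8 of 20 (20% to 40%), against 13.8% to 18% of all genes.

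A few further genes, chosen after their values were seen and so no sign of a direction, were not called either. Mia, a secreted protein of cartilage and melanocytes, read 3008, 3651 and 3206 in Pdx1het and 2208, 2148 and 1888 in Sox9Pdx1D-het, a difference of −0.66 (limma adjusted p = 0.0713). Sox6, a SOXD factor that works beside SOX9, differed by −0.32, and the transcript antisense to it, Sox6os, by −1.06 (limma adjusted p = 0.0837). Without strand-specific probes described, Sox6 and Sox6os may not be separable. Among 27 genes of neurons, glia and neural crest, 0 were called. In 6 (22.2%, against 11.4% of all genes) all Sox9Pdx1D-het arrays lay below all Pdx1het arrays, and 0 lay wholly above (against 11.6%). Sox10, the SOXE factor of glia, read 378, 344 and 473 against 286, 204 and 310 (−0.59), and the glial calcium-binding gene S100b read 174, 186 and 193 against 144, 131 and 99 (−0.58). The summed intensity of these 27 markers ran from 10456 to 11768 in Pdx1het and from 10123 to 10320 in Sox9Pdx1D-het, with no marker at 0, and their part in the lower Sox10 and collagen values was not tested. Fewer cells of a type and less RNA per cell cannot be told apart in pooled tissue. With any 1 array left out, 6 to 11 of the 27 (22.2% to 40.7%) lay wholly below, against 13.8% to 18% of all genes.

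**Figure D3:**
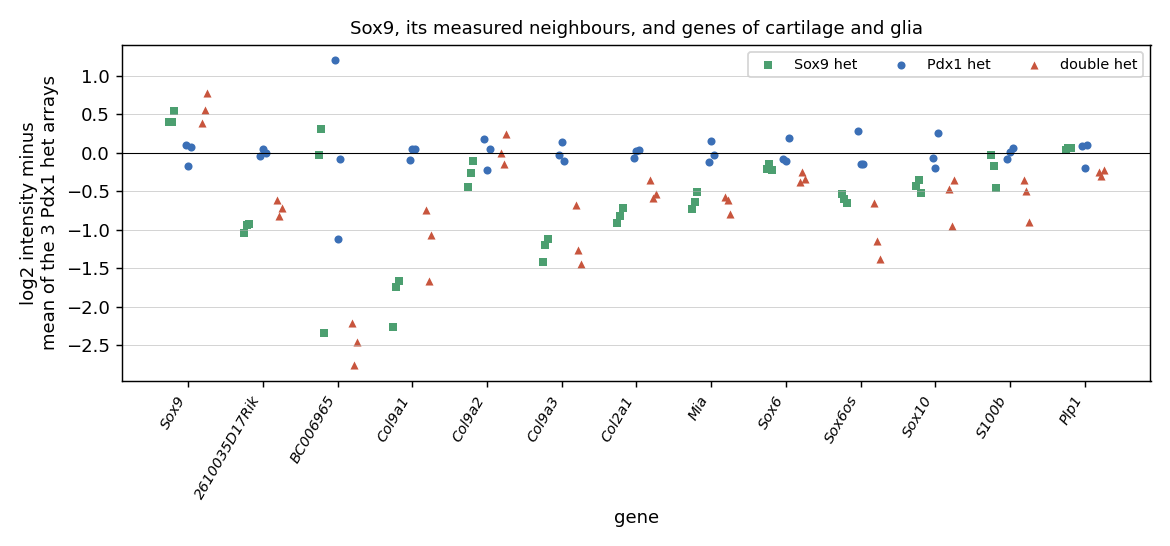
Sox9, its nearest measured neighbours and genes of cartilage and glia, as log2 intensity minus the mean of the 3 Pdx1het arrays. Squares are Sox9het, circles Pdx1het and triangles Sox9Pdx1D-het arrays; Sox9 lies above 0 on all 6 arrays labelled as carrying its deletion, whereas 2610035D17Rik, Col9a1, Col9a3, Col2a1 and Mia lie below 0 on the same arrays.

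Several of the other called genes encode signalling and transcription components. Prickle2, a planar cell polarity protein of the Wnt pathway, read 835, 706 and 742 in Pdx1het and 386, 433 and 322 in Sox9Pdx1D-het and fell by 1.01 in log2 (SE 0.113, limma adjusted p = 0.0331). Mapk8, which encodes the kinase JNK1, read 1467, 1519 and 1616 against 916, 979 and 841 and fell by 0.75 (SE 0.0902, limma adjusted p = 0.0334). Meis2, a TALE homeodomain partner of PDX1 and HOX proteins, read 6169, 4815 and 4983 against 2705, 3277 and 2811 and fell by 0.86 (SE 0.115, limma adjusted p = 0.0429). Its paralogue Meis1 read 984, 820 and 875 against 696, 605 and 613, at −0.48, and was not called (limma adjusted p = 0.0916). In Prickle2, Mapk8 and Meis2 the Sox9het arrays (670 to 730, 1521 to 1784 and 4067 to 4634) lay above every Sox9Pdx1D-het array.

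The remaining named calls were of mixed function. Fryl, a homologue of the Drosophila gene furry, read 331, 344 and 341 against 209, 199 and 191 and fell by 0.76 (SE 0.0667, limma adjusted p = 0.00745); it was called in 5 of the 6 fits without 1 array. Trim55, a muscle RING-finger gene, fell by 1.01, and Cdcp1, a transmembrane glycoprotein, by 0.81. The imprinted noncoding RNA Rian fell by 0.71 and the potassium channel gene Kcna7 by 0.60. Slc6a4, the serotonin transporter, read 301, 295 and 316 against 444, 565 and 597 and rose by 0.81 (SE 0.112, limma adjusted p = 0.0455). Upk3a, a uroplakin of urothelium, rose by 0.92, and Serpina5, the protein C inhibitor, by 0.67. In Slc6a4, Upk3a and Serpina5 the Sox9het arrays read 525 to 593, 203 to 229 and 143 to 149, also above every Pdx1het array.

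Many liver genes read higher in Sox9Pdx1D-het. Of 34 measured genes for plasma proteins and liver metabolism, 1 rose, and 17 (50%, against 11.6% of all genes) had all 3 Sox9Pdx1D-het arrays above all 3 Pdx1het arrays, while 0 lay wholly below. At an unadjusted p under 0.05, 18 were higher (against 7.77% of all genes) and 0 lower (against 8.38%). The median log2 difference was 0.321 against 0.01 for all genes. With any 1 array left out, 17 to 22 genes (50% to 64.7%) did not overlap on the high side, a count that could not fall below 17. The share of all genes in those fits was 15.5% to 17.6%. The list median ran from 0.244 to 0.414. The median was 0.524, 0.181 and 0.407 on Sox9Pdx1D-het replicates 1, 2 and 3, measured from the Pdx1het mean.

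Alb, serum albumin, read 237, 333 and 309 against 1125, 572 and 881, at 1.51 (SE 0.247, limma adjusted p = 0.0735). F12, a coagulation factor, read 185, 132 and 93 against 358, 303 and 399, at 1.42 (SE 0.217, limma adjusted p = 0.0713). Both sets of arrays were well apart without a call. Serpina6, which carries corticosteroids in plasma, read 23874, 15712 and 17273 against 38336, 31212 and 34451 (0.89), and Vtn, vitronectin, read 21222, 15959 and 19637 against 29190, 27063 and 34255 (0.67). Afp, the fetal albumin, differed by 0.43, Apoa2 by 0.70, Ahsg by 1.16 and Cfb by 1.44. Ahsg and Cfb were highest on Sox9Pdx1D-het replicate 1, at 424 and 937 against 192 and 375 on replicate 2. On the Sox9het arrays Alb read 271 to 412, overlapping the Pdx1het arrays, and Vtn, Apoa2 and Cfb overlapped them too. Serpina6 (26067 to 33522), F12 (187 to 225) and Ahsg (139 to 243) read above every Pdx1het array there, whereas Afp (23400 to 26611) read below every one. The median of the liver list on Sox9het replicates 1, 2 and 3 was 0.191, −0.026 and 0.076, measured from the Pdx1het mean.

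Markers of blood cells, which the fetal liver also holds, moved unevenly. Among 25 white blood cell genes, 0 were called, 5 (20%, against 11.6% of all genes) lay wholly above and 0 (against 11.4%) wholly below, and the median was 0.212. Their summed intensity was 10185 to 11847 in Pdx1het and 10540 to 14487 in Sox9Pdx1D-het. Among 19 erythroid genes, 2 (10.5%) lay wholly above and 0 below, with a median of 0.222 that was 0.085, −0.005 and 0.860 on Sox9Pdx1D-het replicates 1, 2 and 3 and fell to 0.04 without replicate 3. The embryonic globin Hba-x read 28187, 22942 and 79504 on those arrays and 30885, 30481 and 50379 on Pdx1het arrays, and the erythroid sum ran from 161705 to 250876 in Pdx1het and from 171070 to 294253 in Sox9Pdx1D-het. No marker in either list was at 0. Without replicate 3, 21 of the 34 liver genes (61.8%) and 9 of the 25 white blood cell genes (36%) lay wholly above, against 15.5% of all genes in that fit. The part of blood cells in the liver values was not tested.

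No gut gene was called, and a few read far higher on Sox9Pdx1D-het replicate 1 than on the other arrays. Of 30 intestinal genes, 8 (26.7%, against 11.6% of all genes) lay wholly above and 2 (6.67%, against 11.4%) wholly below. The list median was 0.164, against 0.01 for all genes. The median was 0.055, 0.146 and 0.180 on replicates 1, 2 and 3, so the list as a whole was not highest on replicate 1. Prap1, a secreted protein of the intestine, read 196, 301 and 236 in Pdx1het and 10878, 869 and 457 in Sox9Pdx1D-het. Its log2 difference was 2.76 (SE 0.931, limma adjusted p = 0.233), and 1.39 without replicate 1. In the authors' deposited table its FDR is 1.81e-07. Aqp8, a water channel of the colon, read 178, 247 and 204 against 1848, 319 and 298, at 1.43 and 0.57 without replicate 1. Guca2b, uroguanylin, read 154, 159 and 174 against 2218, 237 and 162, and Aoc1, diamine oxidase, read 77, 98 and 102 against 2078, 195 and 98. In both genes the arrays overlapped. Genes outside the intestinal list also read far higher on replicate 1, so this was not particular to gut genes. On Sox9Pdx1D-het replicates 1, 2 and 3, Kif27 read 4028, 179 and 114, Ltf 618, 147 and 74, and Sftpd 534, 153 and 138.

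The intestinal regulators followed another order. Cdx2, the homeobox factor that sets intestinal identity, read 75, 76 and 94 in Pdx1het and 85, 216 and 465 in Sox9Pdx1D-het, so it was highest on replicate 3 and within the Pdx1het range on replicate 1. Its log2 difference was 1.33 (SE 0.473, limma adjusted p = 0.245), 1.96 without replicate 1 and 0.74 without replicate 3. Apoa4, an apolipoprotein of enterocytes, also ran higher on replicates 2 and 3, at 152 and 225 against 90 on replicate 1. Lgr5, the R-spondin receptor of intestinal stem cells, read 166, 158 and 170 against 249, 216 and 306, at 0.63 (SE 0.12, limma adjusted p = 0.101), with no array standing out. Fabp1, a fatty acid binding protein of liver and gut, read 83, 92 and 98 against 185, 133 and 125. On the Sox9het arrays Lgr5 (214 to 242) and Fabp1 (123 to 153) also read above every Pdx1het array. There Cdx2 (67 to 77) and Apoa4 (72 to 95) overlapped the Pdx1het arrays. Ccl25, an intestinal chemokine, lay wholly below, at −0.39. Of 19 stomach genes, none was called, and 3 (15.8%, against 11.6% of all genes) lay wholly above, among them Pitx1 at 0.72.

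**Figure D4:**
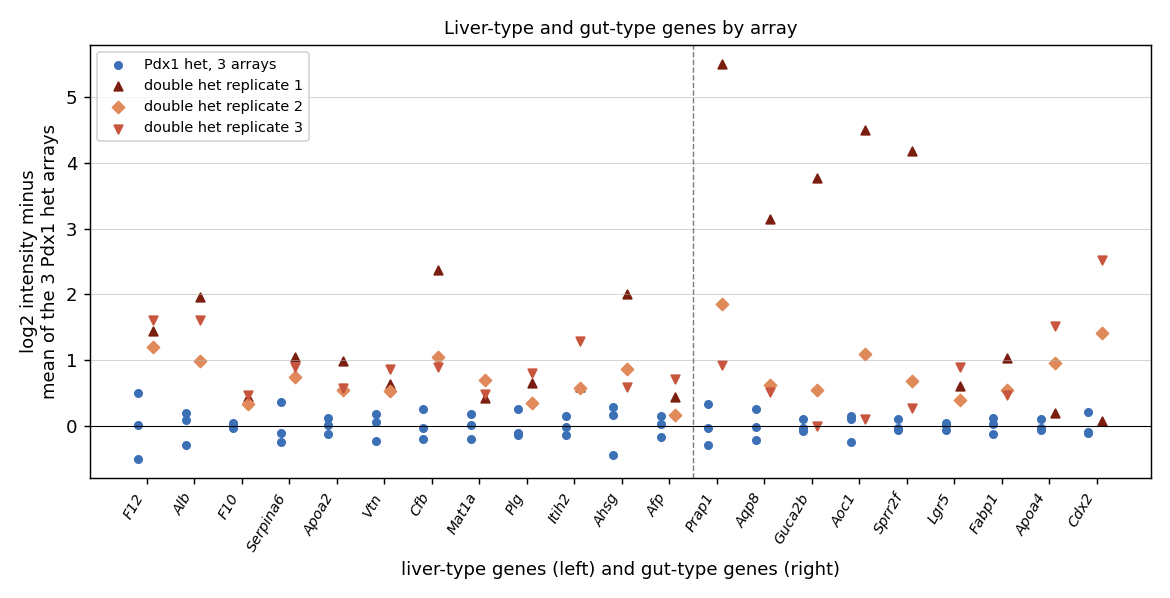
Liver genes (left of the dashed line) and gut genes (right) on the 3 Pdx1het arrays (circles) and on each Sox9Pdx1D-het array (other symbols), as log2 intensity minus the mean of the 3 Pdx1het arrays. The liver genes shown were picked from the 17 of 34 whose arrays did not overlap on the high side. Their place above 0 on all 3 Sox9Pdx1D-het arrays therefore follows from the choice. On the right, Sprr2f is not in the intestinal list and was added after its values were seen. Prap1, Aqp8, Guca2b, Aoc1 and Sprr2f are far higher on replicate 1, and Cdx2 is highest on replicate 3.

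Among pancreatic progenitor factors the non-overlapping genes were mostly on the high side. Of 26 factors, Foxa3 alone rose, 7 (26.9%, against 11.6% of all genes) lay wholly above and 1 (3.85%, against 11.4%) wholly below. Among the 7 were Foxa3, whose regulatory DNA drives the transgene, and the altered genes Sox9 and Pdx1. The count is therefore not one of unaltered factors alone. The median was 0.137, against 0.01 for all genes. Gata4, a zinc-finger factor of pancreatic and foregut endoderm, read 135, 133 and 118 in Pdx1het and 190, 207 and 293 in Sox9Pdx1D-het, at 0.81 (SE 0.177, limma adjusted p = 0.133). Onecut2 read 420, 369 and 396 against 562, 564 and 1217, at 0.88 (limma adjusted p = 0.202) and 0.51 without replicate 3, while the Sox9het arrays read only 166 to 245. Prox1, a homeobox factor of liver and pancreas buds, differed by 0.37 and its arrays did not overlap. Ptf1a and Mnx1 differed by 0.21 and 0.36, and Onecut1 and Nkx6-1 by 0.13 and −0.05, with overlapping arrays in each. With any 1 array left out, the high-side count ran from 7 to 11 (26.9% to 42.3%), against 15.5% to 17.6% of all genes in those fits.

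Among endocrine transcription factors the non-overlapping genes were on the low side. Of 26 measured, 0 were called, 0 lay wholly above (against 11.6% of all genes) and 6 (23.1%, against 11.4%) wholly below. The median was −0.099, against 0.01 for all genes. Neurog3, which commits progenitors to the endocrine lineage and is a known SOX9 target, read 612, 673 and 732 in Pdx1het and 573, 412 and 255 in Sox9Pdx1D-het. Its log2 difference was −0.77 (SE 0.278, limma adjusted p = 0.248) and −0.46 without replicate 3. Pax4, a factor of beta and delta cells, read 521, 460 and 481 against 446, 329 and 222, lowest on replicate 3 as Neurog3 was. Isl1 and Pax6, later pan-endocrine factors, differed by −0.40 and −0.35 and Tox3 by −0.25, and in these the arrays also did not overlap. Neurod1, a direct target of NEUROG3, differed by −0.12, with overlap.

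Hormone and secretory genes held no call. Of 36 genes, 3 (8.33%, against 11.6% of all genes) lay wholly above and 6 (16.7%, against 11.4%) wholly below, with a median of −0.073. Chgb, a granule protein, read 17270, 22537 and 22960 against 17058, 13333 and 12737, at −0.54. G6pc2, a glucose-6-phosphatase of beta cells, differed by −0.50, Snap25, an exocytosis protein, by −0.42, and Ppy by −0.35. The 3 genes wholly above were Slc2a2, the glucose transporter GLUT2, at 0.32, Gnas, a G protein subunit, at 0.28 and Ptprn2, a granule membrane protein, at 0.17. Glucagon (Gcg) differed by −0.21 at intensities of 95 to 120, insulin 2 (Ins2) by less than 0.01 and Iapp by −0.19. Of 28 acinar genes, none was called, 5 (17.9%) lay wholly above and 1 (3.57%) below; the enzyme Cpa1 read 108215, 80271 and 90628 against 109553, 108986 and 112072, at 0.26, and Pnliprp2 differed by 0.43. With any 1 array left out, 5 to 12 of the 28 (17.9% to 42.9%) lay wholly above, against 15.5% to 17.6% of all genes. The highest count came without Sox9Pdx1D-het replicate 3. The acinar median of 0.172 ran from 0.026 to 0.239 in those fits. Among 27 duct and ciliary genes 3 (11.1%) lay wholly above and 3 (11.1%) below, with Pkhd1, a cystic kidney disease gene, at −0.49 and Tm4sf4 at 0.43.

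Prickle2 was the only called gene in the signalling lists. Of 33 Wnt pathway genes, Prickle2 fell, 5 (15.2%) lay wholly above and 8 (24.2%) wholly below. Sfrp5, a secreted Wnt inhibitor of foregut endoderm, read 105, 100 and 119 against 170, 201 and 297, at 1.01 (SE 0.177, limma adjusted p = 0.0872). Lef1, a nuclear effector of beta-catenin, read 2465, 2905 and 3191 against 2086, 1998 and 1737, at −0.55 (limma adjusted p = 0.115). Ctnnb1 (beta-catenin), Tcf7l2 (another effector) and Prickle1 also lay wholly below, at −0.47, −0.44 and −0.36. No Notch, FGF, hedgehog, BMP or TGF-beta pathway gene was called. Against 11.6% of all genes wholly above and 11.4% wholly below, Notch genes split 4 (12.9%) and 4 (12.9%) of 31 and FGF genes 1 (3.70%) and 2 (7.41%) of 27. Hedgehog genes split 4 (30.8%) and 1 (7.69%) of 13, and BMP and TGF-beta genes 2 (8%) and 5 (20%) of 25. Within these lists, the Notch target Hes1 differed by 0.12 and the ligand Jag1 by −0.05, the receptor Notch2 by 0.41 and the target Hey1 by −0.37. Fgfr2, the FGF receptor of the pancreatic epithelium, differed by −0.19, the inhibitor Spry2 by −0.34, and the hedgehog transducer Smo by 0.31. The BMP targets Id1 and Id4 differed by −0.38 and −0.36 and lay wholly below, while Id2 and Id3 differed by 0.23 and 0.04 with overlap. The ligand gene Tgfb2 differed by −0.47, and Tgfb1 by 0.32, wholly above.

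Lists of other cell types and cell states held no call. Their counts stand beside shares of 11.6% wholly above and 11.4% wholly below over all genes. Of 31 mesenchymal genes 3 (9.68%) lay wholly above and 3 (9.68%) below, and of 20 endothelial genes 3 (15%) above and 0 below. Of 11 mesothelial genes 0 lay either way, and of 32 epithelial adhesion and polarity genes 7 (21.9%) lay above and 5 (15.6%) below. Of 34 cell cycle genes, 9 (26.5%) lay wholly above and 2 (5.88%) below, all at small differences. Above were, among others, the replication gene Mcm3 at 0.27, the mitotic kinase gene Plk1 at 0.21 and the cell cycle inhibitor gene Cdkn1b at 0.24. Below were Top2a at −0.29 and Birc5 at −0.17. Immediate early genes split 0 above and 2 (8.70%) below of 23. The pools differed in their mix of male and female embryos: Xist, which is expressed from the inactive X, read 443, 258 and 193 in Pdx1het and 362, 57 and 156 in Sox9Pdx1D-het, and the Y-linked Eif2s3y read 838, 1583 and 1562 against 733, 2324 and 1262. No sex-linked gene separated the groups.

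**Figure D5:**
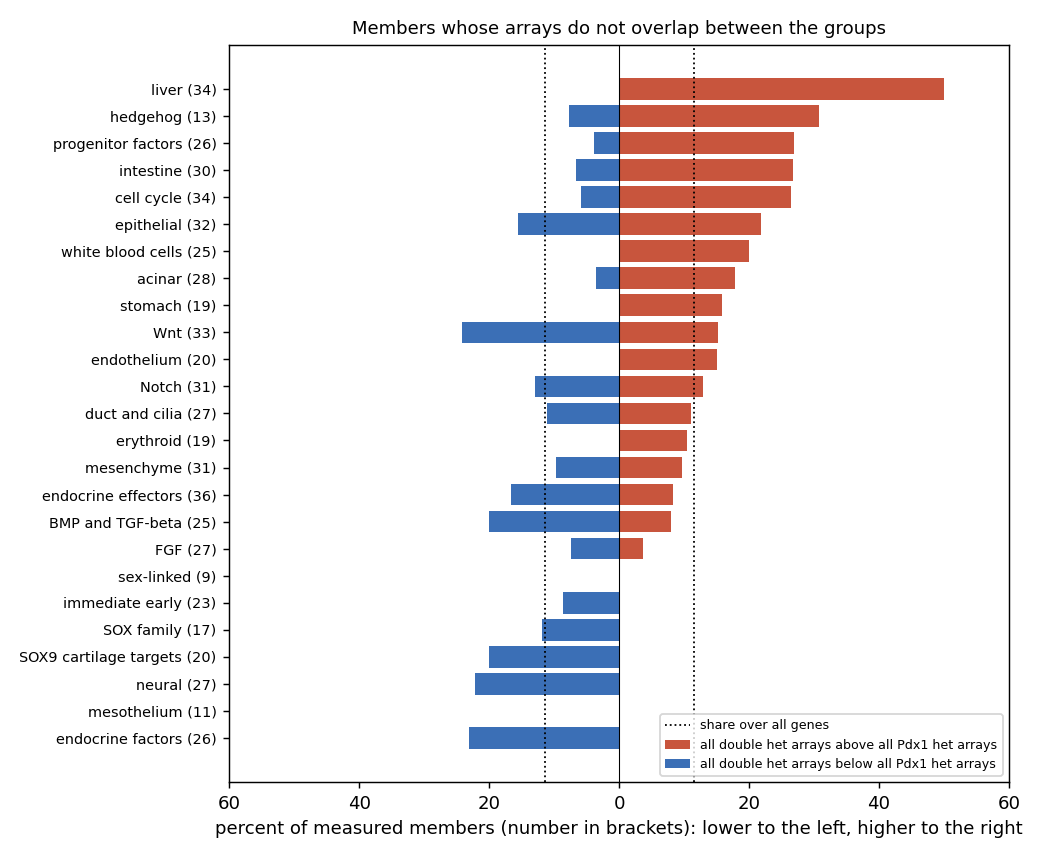
Share of measured members of each gene list (number of members in brackets) whose 3 Sox9Pdx1D-het arrays all lie above (right) or all below (left) the 3 Pdx1het arrays, with dotted lines at the shares over all genes, 11.6% and 11.4%. The liver list reaches 50% on the high side with 0 on the low side, and the endocrine factors, neural and SOX9 cartilage lists have 0 on the high side.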

How the data were processed

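Total RNA was measured on 1-colour Cy3 arrays in 9 samples of 3 genotype groups. The authors deposited a value table of linear intensities named by sample, 1 probe per gene for 18541 genes, and a comparison table with log2 ratios and FDR values (read as adjusted p-values, or q-values) per the file headers. The deposited log2 ratios equal the differences of group means of log2 intensity within 1e-06 in all 18541 genes. The sources used here give no background correction, normalization or way of computing the FDR; limma is named per the submitters' processing notes, with no role. A further 9 array columns, which carry no sample's name, were not assigned or used.

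Intensities were taken to log2 as deposited and fitted with limma 3.58.1 in R 4.3.3 (lmFit, eBayes) over all 9 arrays, so that the groups shared 1 estimate of the spread (residual df 6). The contrast was Sox9Pdx1D-het minus Pdx1het, with Benjamini-Hochberg adjustment over all genes and a call at an adjusted p under 0.05. The fit was tested on simulated data. P-values measure the spread between pools of embryos, and the number of arrays limits the precision. The comparison, the members and the 25 gene lists (596 of 624 genes measured) were chosen with earlier results of these data known, so lists are described by counts and medians, with no test of their own. Named genes were Sox9 and Pdx1, the called genes with the largest differences, up to 4 called members and up to 2 others where a list was about them, and sex-linked genes; other named list members, the neighbours of Foxa3 and Sox9, Meis1, Mia, Sox6os and Sprr2f were chosen after their values were seen. Symbols were updated by Entrez ID through RefSeq for 17183 genes, and 4384 differ from the file. Same-numbered Pdx1het and Sox9Pdx1D-het arrays correlated in their deviations at 0.0654, 0.2345 and 0.1521, and differently numbered ones at −0.1753 to 0.0237. Each array thus correlated best with the same-numbered array of the other group. The numbers are not described as pairing the samples, so the main fit did not pair them. A fit with the number as a block is given among the alternatives. Alternatives were other normalizations, filters, thresholds and array sets and the authors' FDR. Promoter sequences come from RefSeq on GRCm38.p6. Some named genes are counted but not reported individually here.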

Additional observations from a re-analysis of the deposited data

How the results depend on the processing

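The count of called genes, 20, was 19 after quantile normalization, 18 after median centring and 17 with an intensity trend, and these kept 19, 18 and 17 of the 20. It was 43 without the genes below the lower quartile of mean intensity (11 higher, 32 lower), which kept all 20, and 2 with only the 6 arrays of both groups, which kept 1. Thresholds of 0.01 and 0.1 gave 2 and 78 calls, a minimum 1.5-fold left 20, and the authors' deposited FDR gave 3199. Leaving out 1 array gave 1 to 9 calls. A fit with the replicate number as a replicate block gave 16 calls and kept 11 of the 20; 6 of 9 arrays correlated best with an array of their own number, a hint from the data and not from the design. For Sox9, the difference of 0.57 passed under the authors' deposited FDR and under no other alternative, and over the fits without 1 array it ran from 0.47 to 0.67. Pdx1 ran from 0.09 to 0.21 and passed under none. Over 13 alternatives, 260 of 260 values of the 20 called genes kept their direction and 134 lost the call. Most of these directions were fixed in advance and show no stability. The block, 6-array, trend, filter and deposited values share the main log2 difference, and genes without overlap keep their sign when 1 array is left out. Over 2264 values of the 175 named genes the sign turned in 24, in 13 genes whose differences were near 0 and not called. Of 300 list medians under the alternatives, 31 moved by more than the spread between arrays. The cause of the changes was not tested. Genes with intensities near or below that quartile, 118.7, are limited by background.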
